A study of Mus musculus with 8 samples.

Results

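The C cell and neuroendocrine genes described here are 9 genes chosen by name, listed in the deposited table as CALCA, CALCB, CHGA, CHGB, SCG2, SCG3, RET, SYP and PCSK1. All 9 were found among the 16119 genes of the table. Bulk mRNA sequencing gave 8 libraries in 4 groups of 2, all from wild type C57BL/6 mice. Thyroid follicular cell organoids (TFCOs) are cultures of thyroid cells grown in basement membrane extract, and an early and a late passage of the lines mThy14 and mThy16 were sequenced. Their medium held forskolin, an activator of cyclic AMP synthesis, R-spondin, a Wnt potentiator, the TGF-beta receptor inhibitor A83-01, EGF and FGF10. By the methods, the cells of a single mouse thyroid were plated together. A line is therefore taken as 1 animal, which the labels do not state. The other groups were adult thyroid tissue and lung tissue with no culture step, and no treatment or transgene was compared. The TFCO medium was chosen for follicular cells, the organoids came from female mice, and the sex and exact age of the tissue donors are not given in the sources used here.

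Parafollicular C cells lie beside the thyroid follicles and secrete calcitonin, a peptide hormone that lowers blood calcium. They are neuroendocrine cells: hormone precursors are packed with acidic granins into dense-core vesicles, cut by prohormone convertases and released when calcium rises in the cell. The receptor tyrosine kinase RET marks this lineage, and activating mutations of it are a known cause of medullary thyroid carcinoma, the tumour of C cells. Follicular cells, from which TFCOs are grown, make thyroglobulin and thyroid hormone instead.

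Cyclic AMP acts on many neuroendocrine genes through the CRE, the letters TGACGTCA, bound by factors of the CREB family. Because forskolin was in the medium, the promoters were searched for these letters on either strand in the 250 bases before each RefSeq start site (GRCm38.p6). Entries were found for 7 members, all but Calcb and Ret. The 8 letters were in 3 of these 7 (Chgb, Pcsk1 and Scg2), against 1.55% of 32851 promoters. The shorter core TGACGT, which also lies inside TGACGTCA, was in 4 of 7, Chga being added, against 6.47% of promoters. The sequences below, each 30 bases 5′ to 3′ along the gene, show the match in capitals. The first capital lies at -72 (Chgb), -78 (Pcsk1), -68 (Scg2) and -44 (Chga) from the start site.
Chgb: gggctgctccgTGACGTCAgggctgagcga
Pcsk1: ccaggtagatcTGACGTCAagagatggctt
Scg2: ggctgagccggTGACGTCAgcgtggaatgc
Chga: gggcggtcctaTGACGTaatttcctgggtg
They lie at chr2:132781559-132781588 (plus strand), chr13:75089768-75089797 (plus), chr1:79440076-79440105 (minus) and chr12:102554886-102554915 (plus). The promoter of Calca, the calcitonin gene, is given because Calca had the largest difference of the 9 between TFCOs and thyroid tissue. Its last 120 bases before the start site (chr7:114636358-114636477, minus strand) do not hold the core, and no letters are in capitals.
Calca: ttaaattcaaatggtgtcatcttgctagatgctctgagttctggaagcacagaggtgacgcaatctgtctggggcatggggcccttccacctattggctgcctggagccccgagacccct
Positions are counted from the RefSeq start sites. By the GENCODE M21 gene coordinates given below, the stretches of Chgb and Scg2 lie inside the gene. A match is only a run of letters, and no binding was measured.

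The deposited values are normalized counts, that is reads per gene divided by 1 size factor per library, and each library held 9755081 to 16904865 reads on genes. The 8 libraries fell into 2 sets that crossed the groups: 44 genes were at 50 or more in the 4 TFCO libraries and thyroid tissue 1 but at 0 in the remaining 3 libraries, and 16 genes showed the reverse. Values for each thyroid tissue alone are therefore given below. In bulk RNA, fewer C cells and less RNA per C cell cannot be told apart. The labels were checked on follicular markers: thyroglobulin (Tg) was at 1526002 and 2175016 in the thyroid tissues, 9532 to 126441 in TFCOs and 27.6 and 263 in lung.

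The 9 genes together took 0.400% of the reads in thyroid tissue 1 (95% exact binomial interval 0.396% to 0.403%) and 0.618% in thyroid tissue 2 (0.614% to 0.622%). They took 0.00140% to 0.00198% in the 4 TFCO libraries, where the interval of the lowest was 0.00120% to 0.00163% and that of the highest 0.00173% to 0.00227%. The lung tissues, which hold no C cells but rare neuroendocrine cells of the airway, gave 0.00186% and 0.00208%. Summed over the members, the TFCO and lung libraries overlapped, and both thyroid tissues stood far above them. The intervals cover counting error only.

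Calca encodes calcitonin and, by alternative splicing, the neuropeptide CGRP-alpha, and gene-level values do not separate the products. It lies at chr7:114631478-114636357 on the minus strand (GRCm38, as are all coordinates here). The normalized count was 19984 in thyroid tissue 1 and 36502 in thyroid tissue 2. In TFCOs it was 8.43 (mThy14) and 0 (mThy16) at early passage and 9.37 and 7.83 at late passage. Every thyroid value was at least 2133 times the highest TFCO value. These TFCO values rest on 6, 0, 9 and 7 reads, and the 0 of early mThy16 allows a share of up to 3.04e-05% of the reads by the exact binomial interval. Both lung tissues (17.6 and 16.9) lay above all 4 TFCO libraries. Calca was 12.28 lower in TFCOs than in thyroid tissue on the log2(normalized count + 1) scale (log2 fold change -12.28, SE 0.72, limma adjusted p = 0.00104, 2 lines against 2 tissues).

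**Figure D1:**
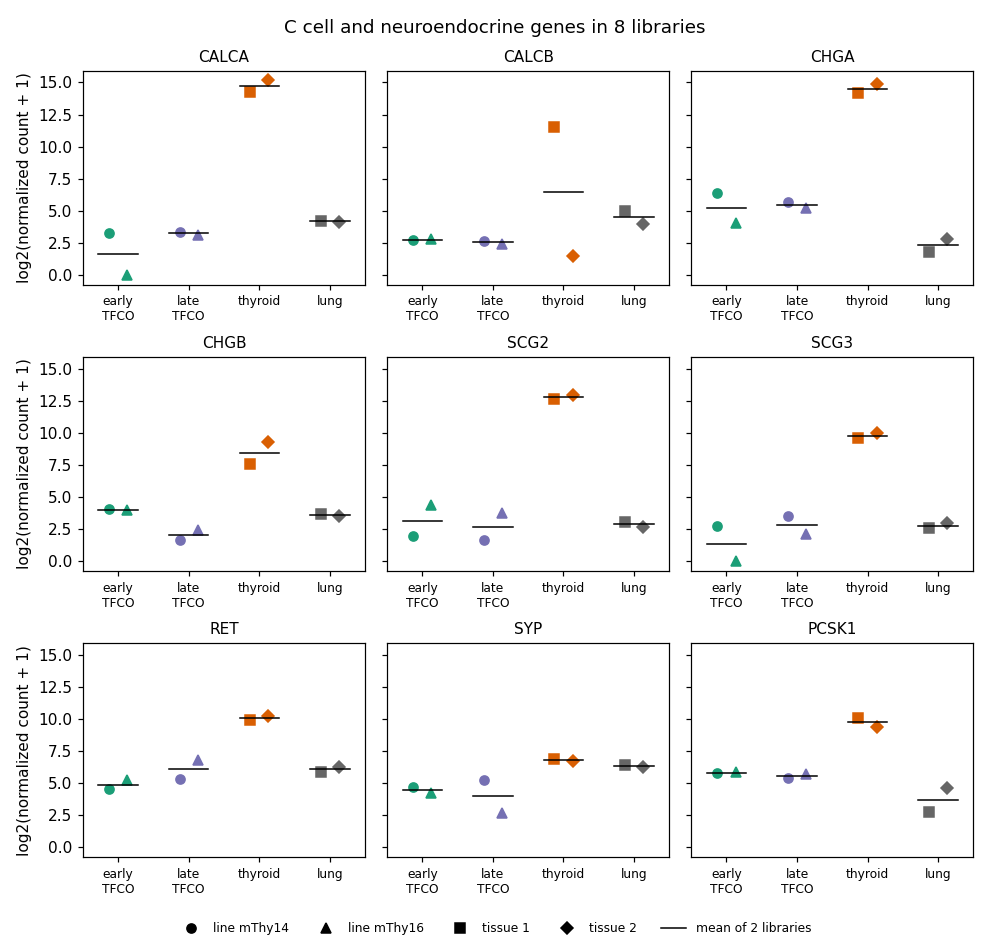
Normalized counts of the 9 genes on a log2(value + 1) axis in early TFCOs, late TFCOs, thyroid tissue and lung tissue. Points are libraries, shaped by line or tissue number, and bars are means of 2 libraries. For 8 genes both thyroid tissues lie above all TFCO libraries, and the exception is CALCB, whose thyroid tissues are at 2895 and 1.84.

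Calcb encodes CGRP-beta, a neuropeptide of sensory and enteric neurons, and is the paralog of Calca on the same chromosome (chr7:114718643-114723365, plus strand). Its normalized count was 2895 in thyroid tissue 1 but 1.84 in thyroid tissue 2. The TFCO values were 5.62, 5.94, 5.20 and 4.47, and the lung values 31.0 and 14.8. Only thyroid tissue 1 stood apart from the other 7 libraries. In reads, thyroid tissue 1 held 2659 of Calcb and 18357 of Calca, and thyroid tissue 2 held 2 of Calcb and 39592 of Calca. The transcripts of the 2 genes share 12 stretches of 50 bases, 0.715% of those of Calca and 0.952% of those of Calcb. Thyroid tissue 2 lies in the other set of libraries, and the part of the set in this value was not tested. The difference between TFCOs and thyroid tissue was -3.85 (95% interval -10.43 to 2.73, limma adjusted p = 0.458). It was -8.85 against thyroid tissue 1 alone and 1.14 against thyroid tissue 2 alone, so no direction is given for Calcb.

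Chromogranin A (Chga, chr12:102554969-102565028, plus strand) is an acidic vesicle protein used as a general marker of neuroendocrine cells. It was the member next to Calca in both thyroid tissues, with or without division by exon length. Its normalized count was 18303 and 29918 in thyroid tissue. In TFCOs it was 84.3 and 15.8 at early and 49.96 and 35.8 at late passage, and in lung 2.51 and 6.07. The 3 classes did not overlap, with TFCOs between thyroid and lung. The log2 fold change of TFCOs against thyroid tissue was -9.17 (SE 0.68, limma adjusted p = 0.00188), and the mean over TFCO libraries was 0.193% of the thyroid mean. Chromogranin B (Chgb, chr2:132781278-132795079, plus strand), its partner in vesicle formation, stood at 191 and 639 in thyroid tissue against 2.08 to 15.5 in TFCOs and 11.7 and 10.8 in lung. TFCOs and lung overlapped for Chgb, and TFCOs were lower than thyroid tissue by a log2 fold change of -5.43 (SE 0.91, limma adjusted p = 0.0256).

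Secretogranin II (Scg2, chr1:79434669-79440120, minus strand), the precursor of secretoneurin, was at 6363 and 8052 in thyroid tissue. The early TFCOs were at 2.81 (mThy14) and 19.8 (mThy16), the late TFCOs at 2.08 and 12.3, and the lung tissues at 7.54 and 5.39. Both passages of mThy16 lay above both passages of mThy14. Secretogranin III (Scg3, chr9:75643189-75684056, minus strand), which binds chromogranin A to the vesicle membrane, was at 763 and 999 in thyroid tissue. It was at 5.62, 0, 10.4 and 3.35 in the TFCOs (early mThy14, early mThy16, late mThy14, late mThy16) and 5.03 and 6.74 in lung. Neither gene separated TFCOs from lung. Against thyroid tissue the log2 fold changes were -9.89 for Scg2 (SE 0.89, limma adjusted p = 0.00435) and -7.68 for Scg3 (SE 0.97, limma adjusted p = 0.0106). Scg3 passed the filter only through the thyroid tissues, so its call is no independent result.

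Prohormone convertase 1 (Pcsk1, chr13:75089826-75134861, plus strand) cuts hormone precursors at pairs of basic residues. It was at 1076 and 682 in thyroid tissue, at 53.4 and 57.4 in early and 42.7 and 52.5 in late TFCOs (mThy14 and mThy16), and at 5.86 and 24.3 in lung. The 4 TFCO values differed by less than 1.5-fold from each other and lay above both lung tissues. The mean over TFCO libraries was 5.86% of the thyroid mean, and the log2 fold change was -4.04 (SE 0.81, limma adjusted p = 0.0456). This call was close to the threshold and was lost in 6 of 18 alternatives, which include a difference without a test.

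Ret (chr6:118151745-118197718, minus strand), the signalling receptor for ligands of the GDNF family, was at 974 and 1236 in thyroid tissue. It was at 22.5 and 36.6 in early and 38.5 and 114 in late TFCOs, and at 57.8 and 78.2 in lung. TFCOs overlapped lung and lay below both thyroid tissues, with a log2 fold change of -4.62 (SE 0.59, limma adjusted p = 0.0109). Synaptophysin (Syp, chrX:7638471-7653256, plus strand), a protein of synaptic and small vesicle membranes, was the member with the smallest difference. It was at 115 and 103 in thyroid tissue, 25.3 and 17.8 in early and 37.5 and 5.59 in late TFCOs, and 85.4 and 74.1 in lung. All TFCO values were lower than all tissue values, but the difference from thyroid tissue did not pass the test (log2 fold change -2.55, 95% interval -4.44 to -0.66, limma adjusted p = 0.153). Syp shares 16.1% of its 50-base stretches with the annotated gene Gm14703, so reads of the 2 may have been split.

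By number, 7 of the 9 members were lower in TFCOs than in thyroid tissue at an adjusted p under 0.05, where 3.05% of the 14703 genes tested were lower. Both thyroid tissues lay above all TFCO libraries for 8 of 9, against 17.3% of all genes. No member was higher, against 0.599%. The median log2 fold change was -5.43 over the members and 0.05 over all genes. All 9 passed the filter of 10 normalized counts in 2 libraries, and 8 would have passed it without the thyroid tissues, Scg3 being the exception. Without thyroid tissue 2, which leaves thyroid tissue 1 alone in its group and assumes that it varies like the others, 4 members were called in place of 7. Chgb, Scg3, Ret and Pcsk1 then lost the call, with adjusted p of 0.0560, 0.0543, 0.0603 and 0.106, and Calcb gained it (0.0326). Within the set of libraries that holds the TFCOs, against thyroid tissue 1 alone, all 9 differences were negative and ran from -11.85 for Calca to -2.63 for Syp.

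**Figure D2:**
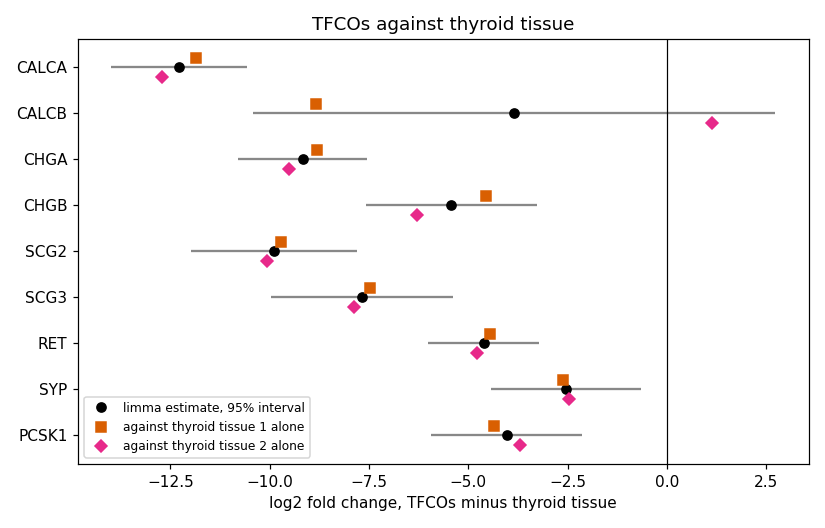
Log2 fold changes of the 9 genes in TFCOs against thyroid tissue. Black points and grey lines are limma estimates with 95% intervals, squares and diamonds the differences from thyroid tissue 1 or 2 alone. Only CALCB turns direction between the tissues, from -8.85 to 1.14, and its interval and no other crosses 0.

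Divided by the exon length of the gene, the order of levels in thyroid tissue 1 was Calca (12200 normalized counts per kb), Chga (9720), Calcb (2783), Scg2 (2530), Scg3 (320), Pcsk1 (213), Ret (144), Chgb (69.5) and Syp (44.5). In thyroid tissue 2 it was Calca (22285), Chga (15888), Scg2 (3201), Scg3 (419), Chgb (233), Ret (183), Pcsk1 (135), Syp (39.9) and Calcb (1.77). Calca lay above Chga in each tissue, although the ranges of the 2 genes over both tissues overlapped. Chgb, Ret and Pcsk1 changed places between the tissues, so their order is not settled. Division by length assumes reads along the whole transcript, and the methods and the labels name different protocols, so this was not settled. Without division Calca and then Chga also led in each tissue. In thyroid tissue 1 Scg2, Calcb, Pcsk1, Ret, Scg3, Chgb and Syp followed. In thyroid tissue 2 Scg2, Ret, Scg3, Pcsk1, Chgb, Syp and Calcb followed. In TFCOs the levels per kb were 8.41 to 44.8 for Chga, 8.47 to 11.4 for Pcsk1, 3.33 to 16.9 for Ret, 2.16 to 14.5 for Syp and at most 7.88 for the other 5. The ranges of Chga, Pcsk1, Ret and Syp overlapped. Chga, Pcsk1 and Ret were the 3 members at 10 or more normalized counts in every TFCO library.

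Lung tissue served as the unrelated tissue and as the background for reads of these genes outside the thyroid. Against lung, Chga was the 1 member of 9 that was higher in TFCOs, where 9.83% of all genes were higher and 13.5% lower. Its log2 fold change was 3.02 (SE 0.68, limma adjusted p = 0.0264), and every TFCO value (15.8 to 84.3) lay above both lung values. Neither lung library lies in the set of the TFCOs, so the tissue and the set cannot be told apart, and the call was lost without either lung tissue (limma adjusted p = 0.147 and 0.0846). Pcsk1 did not pass the test (1.99, 95% interval 0.08 to 3.89, limma adjusted p = 0.101), nor did Syp (-2.10, -3.99 to -0.21, 0.0882) or Calca (-1.75, -3.45 to -0.04, 0.106). For Ret the interval was -2.00 to 0.79, for Scg2 -2.06 to 2.13, for Scg3 -2.98 to 1.61 and for Chgb -2.74 to 1.56. These 4 were therefore not distinguished from lung, which does not show that the levels were equal. Calcb did not pass the test either (-1.84, limma adjusted p = 0.629). Every TFCO value of Calcb (4.47 to 5.94) lay below both lung values (31.0 and 14.8).

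Thyroid tissue was higher than lung for 7 of 9 members, against 2.89% of all genes. Scg3 is among the 7 but passed the filter only through the thyroid tissues, so its call is no independent result. The log2 fold changes were 12.20 for Chga, 10.53 for Calca, 9.92 for Scg2, 7.00 for Scg3, 6.03 for Pcsk1, 4.84 for Chgb and 4.01 for Ret. Syp differed by 0.45 (95% interval -1.44 to 2.34, limma adjusted p = 0.754). Calcb was 7.01 higher than lung in thyroid tissue 1 and 2.98 lower in thyroid tissue 2 on this scale (differences 7.01 and -2.98). Within the set that holds thyroid tissue 2 and lung, the 7 called members differed by 4.18 (Ret) to 12.55 (Chga). This comparison and the one with TFCOs share the thyroid libraries. Only 3 members were called without lung tissue 1 and 4 without lung tissue 2.

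Late and early TFCOs hold the same lines, and the values here come from the fit without the line as a term. None of the 9 members was called between late and early TFCOs by limma, with or without voom, and none had an unadjusted p under 0.05 on the log2 values. Over all genes, 0% were called lower and 0% higher, and 166 of 14703 genes had an unadjusted p under 0.05. The libraries of the groups did not overlap for 3 members that were lower at late passage (Calcb, Chgb and Pcsk1, against 12.4% of all genes) and 1 that was higher (Ret, against 11.0%). Chgb went from 15.5 to 2.08 in mThy14 and from 14.9 to 4.47 in mThy16 (log2 fold change -1.98, 95% interval -4.15 to 0.20). Ret went from 22.5 to 38.5 and from 36.6 to 114 (1.18, -0.40 to 2.77). The Calca difference of 1.64 (-0.79 to 4.06) rests on mThy16, in which it went from 0 to 7 reads, whereas mThy14 differed by 0.14. The adjusted p was 1 for each member.

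**Figure D3:**
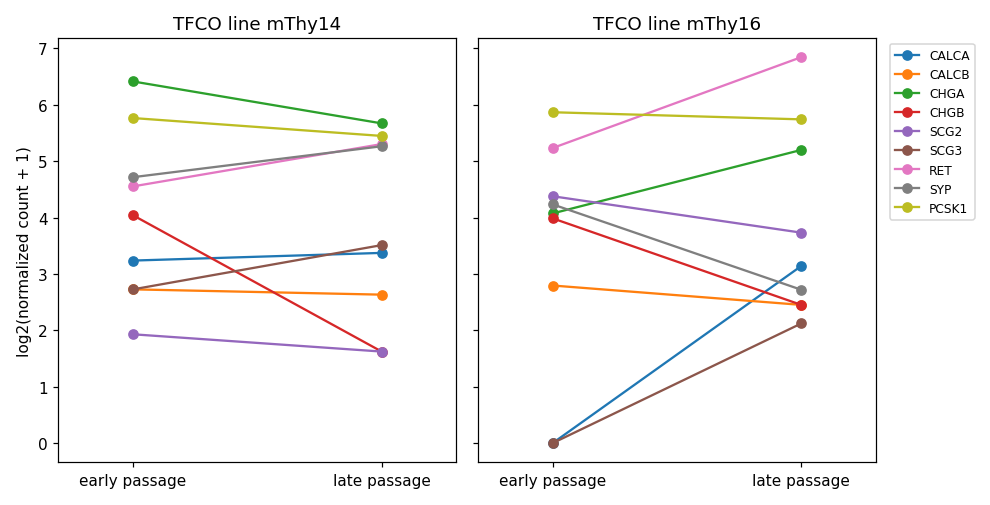
Log2(normalized count + 1) of the 9 genes in early and late passage TFCOs, with 1 panel per line and 1 line per gene. CALCB, CHGB, SCG2 and PCSK1 are lower and CALCA, SCG3 and RET higher at late passage in both panels. CHGA and SYP differ in opposite directions between the panels, and no gene passed the test.

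The other genes of the C cell programme were read from lists. Beside the counts of called genes against thyroid tissue, 3.05% of all genes tested were lower and 0.599% higher. Of 15 tested transcription factors and further C cell genes, 2 were lower in TFCOs than in thyroid tissue and 0 were higher (median -0.33). Somatostatin (Sst), a peptide made by some C cells, was at 111 and 157 against 0 to 3.12. Its call (-5.80, limma adjusted p = 0.0236) is no independent result, since Sst passed the filter only through the thyroid tissues. Gastrin-releasing peptide (Grp) was at 1147 and 2045 against 52.5 to 379 (-3.93, limma adjusted p = 0.0450). Nkx2-1, a factor that follicular cells and C cells share, was at 3521 to 12087 in TFCOs and 7778 and 4401 in thyroid tissue and was not called. Nkx2-2 was at 96.1 to 1338 in TFCOs, 299 and 268 in thyroid tissue and 1.68 and 0 in lung. It was not called against thyroid tissue. In TFCOs it was higher than in lung, as was Scg5, described below (2 of 15, against 9.83% of all genes). Isl1 was at 122 in early mThy14 and 2.24 to 7.92 in the other TFCO libraries, against 597 and 238 in thyroid tissue.

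Of 8 tested granins and related secretory proteins, 5 were lower (median -5.21), the 4 granins above and Pcsk1n, the inhibitor of Pcsk1. Pcsk1n was at 226 and 155 in thyroid tissue and 0 to 12.3 in TFCOs (-4.99, limma adjusted p = 0.0433), and it too passed the filter only through the thyroid tissues, as did Scg3. Of 10 prohormone processing enzymes, 2 were lower, Pcsk1 and Pcsk2 (median -1.59). For 5 of the 10, every TFCO library lay below both thyroid tissues, against 17.3% of all genes. For 3 (Furin, Cpd and Pcsk7) every TFCO library lay above both, and none of these was called. Pcsk2, the second convertase of dense-core vesicles, was at 3846 and 2179 in thyroid tissue, 44.6 to 91.6 in TFCOs and 0 in both lung tissues. It was lower in TFCOs than in thyroid tissue (-5.51, SE 0.74, limma adjusted p = 0.0132). It was higher in TFCOs than in lung (limma adjusted p = 0.00393), at least 17.7-fold in the lowest TFCO library when each lung library is set to 3 reads. Pam, which amidates the carboxyl end of peptides such as calcitonin, was at 1077 to 5521 in TFCOs and 12358 and 6498 in thyroid tissue (-1.40, limma adjusted p = 0.215). Carboxypeptidase E (Cpe), which trims the basic residues left by the convertases, was at 9.84 and 4.16 in mThy14 but 5111 and 5539 in mThy16, on either side of the thyroid tissues (1757 and 1481).

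Vesicle and exocytosis genes made up the longest list. Of 30 tested, 1 was lower and 1 higher (median -0.27), against 3.05% and 0.599% of all genes. Complexin 2 (Cplx2), a regulator of vesicle fusion, was at 2109 and 3625 in thyroid tissue and 20.1 to 122 in TFCOs (-6.12, limma adjusted p = 0.00688). Ptprn, or IA-2, a dense-core vesicle membrane protein, was at 191098 in early mThy14, 21012 in late mThy14, 6982 in early mThy16 and 7089 in late mThy16. The thyroid tissues were at 897 and 411 and the lung tissues at 97.2 and 47.2. Ptprn was thus higher in every TFCO library than in any tissue (5.12 against thyroid tissue, SE 0.98, limma adjusted p = 0.0404, and 4.56 against thyroid tissue 1 alone).

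**Figure D4:**
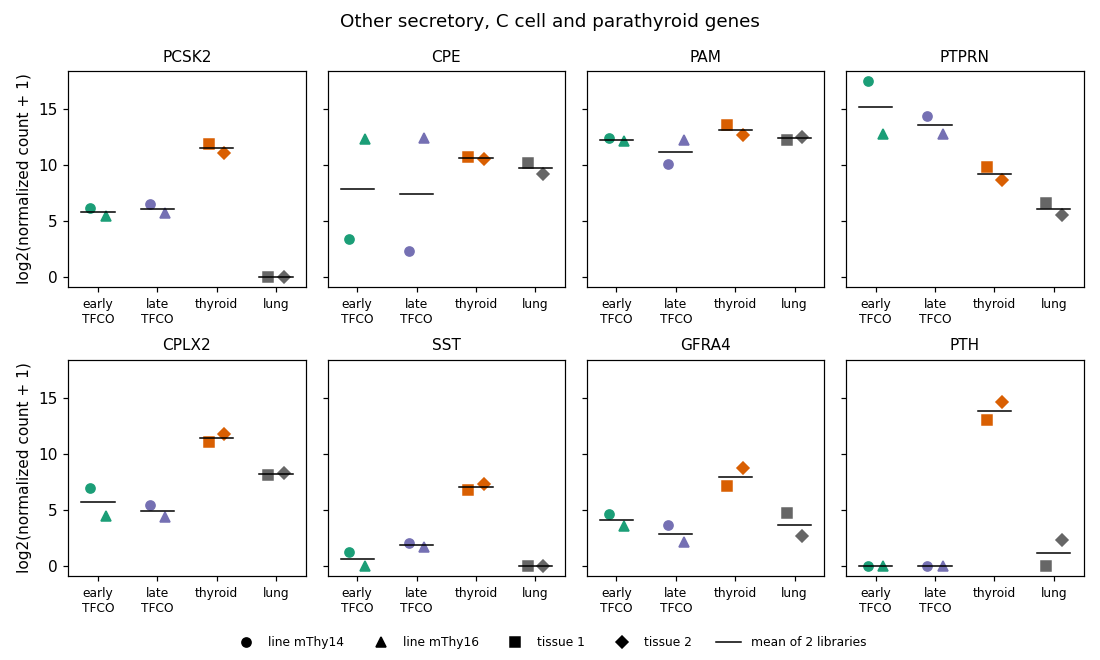
Log2(normalized count + 1) of 8 genes outside the 9 members, by group as in the plot of the members. PCSK2, CPLX2 and SST lie below thyroid tissue in all TFCO libraries, PTPRN lies above it, CPE splits the lines, and PTH is at 0 in all 4 TFCO libraries.

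RET signals with GFR-alpha co-receptors, of which GFR-alpha-4 (Gfra4) pairs with persephin and is found in C cells. Gfra4 was at 142 and 427 in thyroid tissue and 3.35 to 23.9 in TFCOs but did not pass the test (-4.46, limma adjusted p = 0.0809). Gfra1, the co-receptor for GDNF, was at 26.8 to 51.5 in TFCOs and 28.3 and 33.2 in thyroid tissue. None of the 9 tested RET ligands and co-receptors was called (median -1.02). Of 9 tested genes of the calcitonin family and its receptors, 2 were lower (median -4.44), Calca and Ramp2, a receptor subunit with known expression in vessels, at 287 and 364 in thyroid tissue and 0.99 to 11.2 in TFCOs (-5.78, limma adjusted p = 0.0109). The calcitonin receptor gene Calcr was at 15.2 and 1.84 in thyroid tissue and 0 to 5.62 in TFCOs.

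Some markers of other cells that make these proteins were also lower in the same comparison. Parathyroid chief cells also hold chromogranin A. Of 5 parathyroid markers 3 were lower in TFCOs (Pth, Casr and Gata3), and their summed level was 11553 and 26842 in the thyroid tissues, 398 to 925 in TFCOs and 186 to 257 in lung. Pth, parathyroid hormone, was at 8411 and 25341 in the thyroid tissues and at 0 in all 4 TFCO libraries, so that it was tested only because it is high in thyroid tissue. Of 14 tested neuron and Schwann cell markers 1, S100b, was lower, against 3.05% of all genes. Their summed level was 1907 to 2146 in thyroid tissue, 643 to 1136 in TFCOs and 1179 to 2230 in lung. For 6 of the 16 listed, including Nefl, which was too low to be tested, every TFCO library lay below both thyroid tissues, against 17.3% of all genes tested. Tubb3 was the 1 marker above both (32.3 to 67.1 against 27.2 and 19.4). Sox10 was at 159 to 375 in TFCOs and 183 and 24.0 in thyroid tissue. Neither Tubb3 nor Sox10 was called. The part of these cells in the levels of Chga, Ret and Syp was not tested. Of 7 follicular cell markers none was called (median -0.99), but their summed level was 18621 to 163253 in TFCOs and 1548787 to 2220898 in thyroid tissue. Tg (-5.87, limma adjusted p = 0.0620) and the iodide transporter Slc5a5 (-4.08, limma adjusted p = 0.105) were lower in every TFCO library than in both thyroid tissues. Of 4 lung epithelium markers none was called against thyroid tissue (median 0.65).

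The genes whose values over the 8 libraries were most like those of Calca, of 9802 genes at 50 or more in both thyroid tissues, were Slc2a4 (Pearson r 0.998), Scg3 (0.992), Ampd1 (0.988), Aldh1a3 (0.977), Pck1 (0.977), Wfikkn2 (0.977), Pth (0.974), Paqr5 (0.970), Pnpla3 (0.970) and Kl (0.970). The r is a description over 8 libraries, 4 of which come from 2 lines, and it mostly separates thyroid tissue from the rest. Slc2a4, the insulin-responsive glucose transporter of muscle and fat, was at 844 and 857 in thyroid tissue and 44.6 to 98.4 in TFCOs. Kl, or klotho, the FGF23 co-receptor that parathyroid also makes, was at 1000.4 and 772 in thyroid tissue and 0 to 21.2 in TFCOs.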

How the data were processed

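Mouse RNA-seq libraries were grouped by the passage stage and tissue in their labels. The authors deposited normalized count signal values, reads per gene over 1 size factor per library. In their methods the authors used a stranded polyA kit and DESeq2, whereas the labels describe an adapted CEL-Seq protocol. Submitters' processing notes list BWA 0.6.2-r126 and builds hg38 and mm10. Strand use in counting is not given in the sources used here. Each value was a whole multiple of 1 step per library (tolerance 0.01), which gave the reads.

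log2(normalized count + 1) was tested with limma 3.58.1 (R 4.3.3, mean-variance trend, Benjamini-Hochberg) over 14703 genes that reached 10 in 2 or more libraries. The pseudocount understates fold changes of low genes. Passages of a line were averaged, and lines, thyroid and lung fitted together. Late against early passage was fitted over all 8 libraries. Lines pair early with late libraries, and their differences correlated at 0.477. An exact permutation test of 2 against 2 cannot go below p = 0.333. Scripts were tested on simulated data. Coordinates are GENCODE M21 (GRCm38).

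The members, lists and tests were chosen with earlier results of these data known. One gene of the C cell list is not reported here and was taken out of its counts. All members are named. Of each list, the text names at most 4 called genes and those of the roles described, with the 10 genes most like Calca. Nkx2-1, Tg, Slc5a5 and the follicular check were named after their values were seen. Alternatives covered the pseudocount, filter, normalization, trend, passages as separate samples, replicate block and libraries left out. limma voom on the reads was added after seeing the data.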

Additional observations from a re-analysis of the deposited data

How the results depend on the processing

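Members called lower in TFCOs than in thyroid tissue numbered 4 to 7 when 1 library was left out and 6 or 7 otherwise. Those called between thyroid and lung tissue numbered 3 to 8 with 1 library left out, and those between TFCOs and lung 0 to 1. TFCOs against lung gave 2 calls (Chga and Pcsk1) with quantile normalization or with the TFCO libraries as separate samples and 0 with voom. Late against early passage gave 0 calls throughout, and with lines as a replicate block the paired fit also called 0 members. Where the direction turned, differences were small or rested on 1 library. For Calcb, leaving out 1 library gave -8.85 to 1.14 in TFCOs against thyroid and -2.98 to 7.01 in thyroid against lung (-2.98 with thyroid tissue 2 alone), and quantile normalization gave 0.049 late against early. Late against early, leaving out 1 library gave -0.98 to 1.36 for Chga, -1.70 to 0.75 for Scg2 and -1.76 to 0.79 for Syp. Against lung, Scg2 was -0.0037 with a pseudocount of 0.5, -0.56 with quantile normalization, -0.071 at equal totals and -0.18 to 0.24 with 1 library left out, Ret was 0.39 with quantile normalization, and Chgb was -1.19 to 0.016 with 1 library left out. The causes were not tested. Quantile normalization moved the median of all genes to 0.17, 0.14 and 0.32 in the comparisons of TFCOs with thyroid, thyroid with lung and TFCOs with lung.

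The calls of Calca, Chga and Scg2 against thyroid tissue held in every alternative that was tested. The 18 alternatives include thyroid tissue 1 alone, which gave a difference without a test. Pcsk1 lost the call in 6 of 18 (adjusted p up to 0.106), Chgb in 4 (up to 0.0838), and Scg3 and Ret in 1 each. Over all genes, 536 were called between TFCOs and thyroid tissue, against 143 without thyroid tissue 2, 4026 without thyroid tissue 1, 187 and 184 without a lung tissue, 1322 with separate TFCO libraries and 232 with voom. Thyroid against lung gave 889, and 59 to 4288 with 1 library left out. TFCOs against lung gave 3435, 6625 with separate TFCO libraries, and 296 to 6981 with 1 library left out. Planned edgeR and DESeq2 tests on the reads were not run. Fewer than 10 reads lie behind each Calca and Calcb value in TFCOs, so changes there were not detectable at this depth.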

Other observations

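Scg5, or 7B2, the chaperone of Pcsk2, was singled out after its values were seen. It was at 28611 (early) and 34605 (late) in line mThy14, 8459 and 7691 in line mThy16, 3402 and 2824 in thyroid tissue and 16.8 and 14.8 in lung. All TFCO values lay above both thyroid tissues, but the difference did not pass the test (log2 fold change 2.36, SE 0.61, limma adjusted p = 0.0955), and against lung it was 9.89 (SE 0.61, limma adjusted p = 0.000467). Ptprn2, the paralog of Ptprn, was also named after its values were seen and was at 5643 and 626 in early and late mThy14, 186 and 263 in mThy16, 279 and 345 in thyroid tissue and 47.7 and 35.7 in lung.

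The difference between lines in Cpe was -9.47 on the log2 scale (mThy14 minus mThy16), with both passages of a line alike. Among the 9 members the line difference ran from -2.28 for Scg2 to 2.06 for Scg3. No test of lines was made, since each line is taken as 1 animal.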
